A study of Homo sapiens with 8 samples.

Results

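High-scoring gained regions are stretches of the genome that carried a peak of dimethylated lysine 4 of histone H3 (H3K4me2) in both libraries of RD cells depleted of LSD1 and in no library of control cells. RD is an established human rhabdomyosarcoma line. The cells received a small interfering RNA (siRNA) against LSD1 (siLSD1, Silencer Select construct s618) or a control siRNA (siCtrl), had fresh medium after 8 hours and were harvested at 96 hours. Each siRNA was represented by 2 ChIP-seq libraries from replicates that the submitters call biological, and for each siRNA the authors also deposited a peak list of the pooled replicates. A single siRNA construct targeted LSD1, and the depletion of LSD1 itself was not measured in these data. The cell line was not checked against marker genes, because the data are peak lists on the hg19 build and no gene annotation of that build was used.

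H3K4me2 marks promoters and enhancers, including enhancers that are primed but not yet active. LSD1, encoded by KDM1A, takes methyl groups off mono- and dimethylated lysine 4, and works in complexes with CoREST and histone deacetylases. In muscle precursors and in sarcomas it is known as a regulator of enhancers and of differentiation. The title of the study places its question in the adhesion of rhabdomyosarcoma cells.

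Peaks of the 4 libraries on chromosomes 1 to 22 were merged wherever they overlapped by at least 1 bp, which gave 57670 regions. Of these, 4083 (7.08%) were gained, with a peak in each siLSD1 library and none in the siCtrl libraries. No pooled siCtrl peak overlapped 3272 of the gained regions, and 1745 of those had an overlapping pooled siLSD1 peak with a score of at least 150. These 1745 regions, 3.03% of all merged regions and 42.7% of the gained ones, are the high-scoring gained regions. The score is the authors' own value for a peak, higher for a stronger peak. Ranks, medians and thresholds of scores are taken within a list, and scores of different lists given side by side are not on a common scale. Presence of peaks and the pooled score chose the regions, so counts and scores below describe them and do not test an effect of LSD1. In the reverse direction 600 regions were lost, of which 179 had a pooled siCtrl peak scoring at least 150 and no pooled siLSD1 peak.

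The clearest gene-level examples were regions over the starts of BST2 and CLDN4. BST2 encodes tetherin, an interferon-induced membrane protein that holds budding viruses at the cell surface, and CLDN4 encodes claudin-4, a component of epithelial tight junctions. From general knowledge of hg19 gene positions, each of these regions spans the start of the gene. Their RefSeq promoters are shown because the mark appeared there. The 250 bases before the gene's start are given 5′ to 3′ on the strand of the gene, at chr19:17405631-17405880 (minus strand) and chr7:73830746-73830995 (plus strand) of GRCh38.p14. These positions belong to another build than every other coordinate given here. Capitals mark matches to a repeat of GAAA with any 2 bases between its copies, the core of interferon-response elements, in BST2, and to GGGCGG on the opposite strand, a GC box, in CLDN4.
BST2: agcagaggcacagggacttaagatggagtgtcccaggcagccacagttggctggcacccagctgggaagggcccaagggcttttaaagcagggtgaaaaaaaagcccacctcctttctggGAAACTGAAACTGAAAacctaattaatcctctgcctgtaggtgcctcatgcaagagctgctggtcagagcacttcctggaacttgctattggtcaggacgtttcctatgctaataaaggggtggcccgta
CLDN4: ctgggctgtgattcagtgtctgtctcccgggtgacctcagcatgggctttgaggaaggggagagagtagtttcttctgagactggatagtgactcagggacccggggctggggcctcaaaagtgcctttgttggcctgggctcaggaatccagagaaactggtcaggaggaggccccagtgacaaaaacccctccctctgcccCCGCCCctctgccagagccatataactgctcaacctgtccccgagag
BST2 held 2 overlapping matches to the GAAA repeat, at 130 to 121 and 124 to 115 bases before the start. That motif, searched on both strands, was in 3.02% of 35116 RefSeq promoter windows. CLDN4 held 1 match to GGGCGG, at 47 to 42 bases before the start, a motif found in 42.6% of the windows. CANNTG and TATAAA were searched as well, and BST2 held 2 matches to CANNTG, which was in 61.8% of the windows. A match describes the letters of the promoter and was not tied to any factor in these data.

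The region at BST2, chr19:17514750-17518813 in 19p13.11, was 4064 bp wide. Its peak scored 393.39 in siLSD1 replicate 1, 318.30 in siLSD1 replicate 2 and 639.37 in the pooled siLSD1 list. Neither siCtrl library nor the pooled siCtrl list had a peak there, and the nearest siCtrl library peak lay 3.54 kb away. At CLDN4, chr7:73240917-73248210 in 7q11.23, the gained region was 7294 bp wide, among the 5 widest. The highest scores there were 336.23 and 438.20 in siLSD1 replicates 1 and 2 and 628.69 in the pooled list. In replicate 1 a single peak ran across the region, while replicate 2 and the pooled list each had 2 peaks. The lower of these scored 178.52 in replicate 2 and 324.39 in the pooled list. Peaks shared by all 4 libraries lay on both sides of these 2 regions, the nearest at 3.26 kb from the BST2 region and 2.43 kb from the CLDN4 region, as the map of peaks at 5 loci shows.

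**Figure D1:**
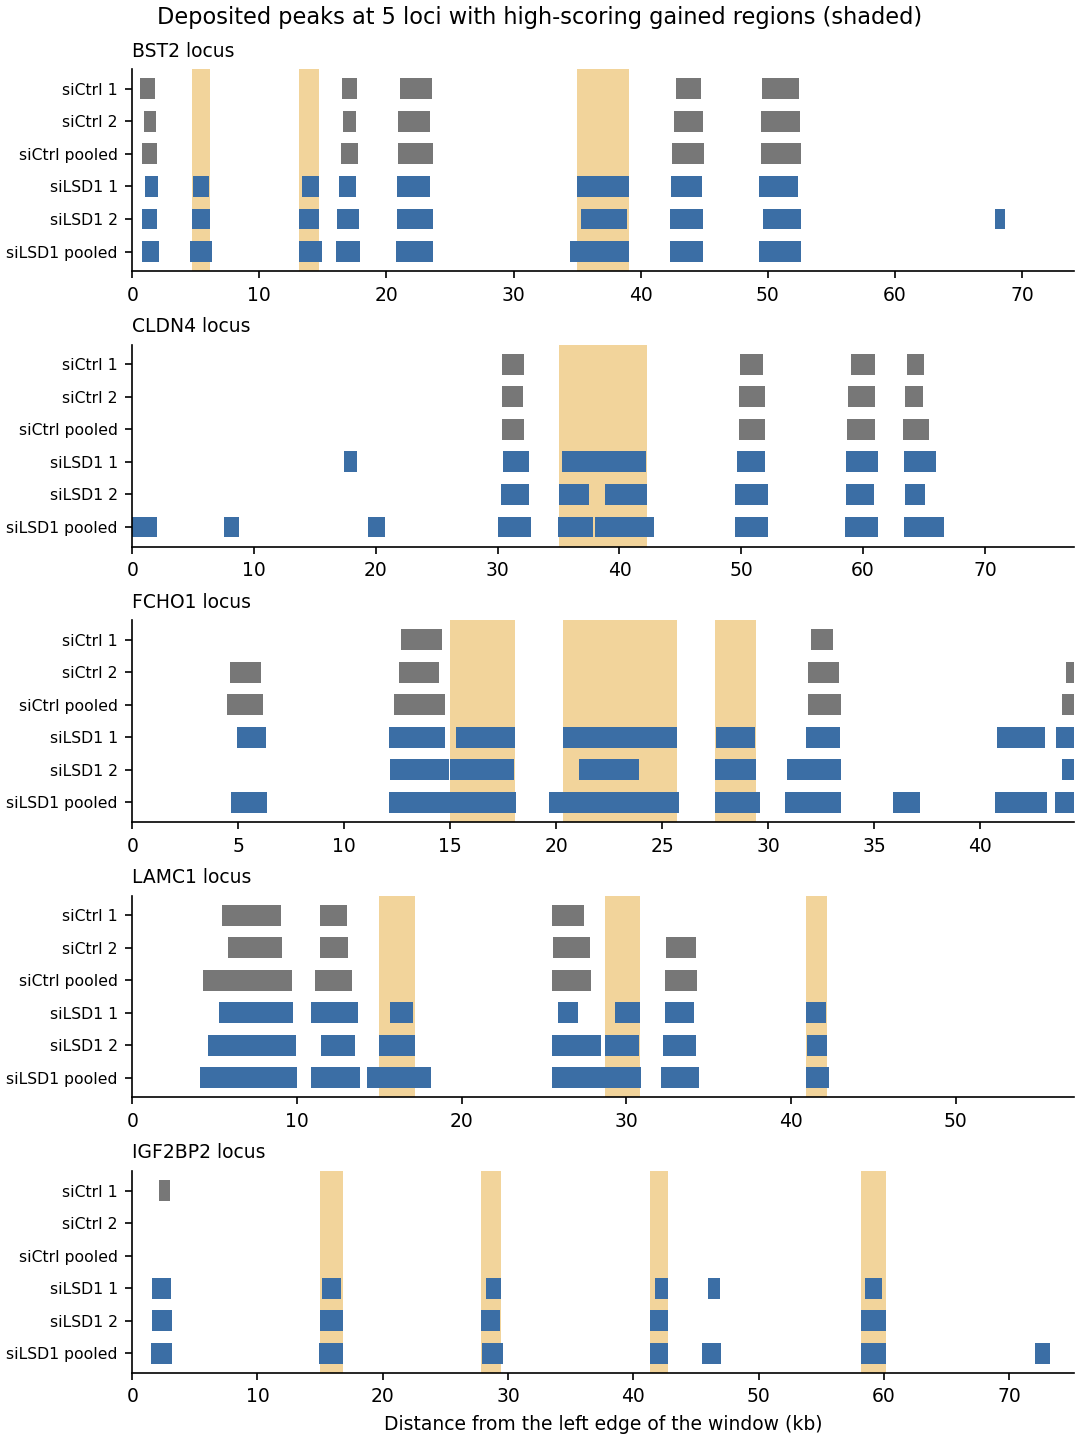
Peaks of the 6 deposited lists (rows; grey siCtrl, blue siLSD1) around 5 genes, against distance in kb from the left edge of each window; every bar is 1 peak and shading marks the high-scoring gained regions. The shaded regions have siLSD1 peaks and no siCtrl peak, and near FCHO1 and LAMC1 a pooled siLSD1 peak runs from a shaded region into a neighbouring siCtrl peak.

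Of the genes named from the preset adhesion and junction families, the others were PODXL, COL27A1 and LAMC1. Distances from regions to gene starts were not computed, so a region called upstream of a gene need not lie near its promoter. Upstream of PODXL, which encodes the sialomucin podocalyxin, the region chr7:131337449-131340391 scored 547.29 and 385.32 in siLSD1 replicates 1 and 2 and 629.64 in the pooled list. Inside COL27A1, a fibrillar collagen gene, chr9:116937230-116941134 scored 385.91, 299.03 and 618.86 in the same order. The nearest region called in all 4 libraries was 36.0 kb from the first and 10.3 kb from the second. LAMC1, which encodes the gamma-1 chain of laminins in basement membranes, carried 3 gained regions within 27.2 kb. Their library scores ran from 69.32 to 153.20. CD44 and LPP were not in those families and are named for their groups of 3 regions. Upstream of CD44, the gene of a hyaluronan receptor, 3 gained regions had pooled scores of 297.26, 183.75 and 168.49. Library scores there ran from 51.47 to 229.62. LPP, which encodes a LIM protein of focal adhesions, carried 3 gained regions with pooled scores of 369.54, 264.68 and 249.65. Their library scores ran from 64.72 to 305.70.

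The other genes with strong or grouped regions were of several kinds. CSRP3, chosen after its values were seen, encodes muscle LIM protein. Its region, chr11:19221048-19224307, scored 226.27 and 260.28 in siLSD1 replicates 1 and 2 and 543 in the pooled list. CACNA1A, the pore subunit of a voltage-gated calcium channel found mainly in neurons, carried 3 gained regions. Its strongest, chr19:13363257-13366870, scored 503.71, 368.24 and 621.20 in the same order. Upstream of NFIC, a transcription factor of the nuclear factor I family, chr19:3317927-3321048 scored 352.29 and 661.98 in the replicates and 928.14 in the pooled list. IGF2BP2, which encodes an mRNA-binding protein, carried 4 gained regions over 45.2 kb with pooled scores from 160.99 to 423.55. No region called in all 4 libraries lay among those 4, and the nearest was 66.4 kb away from the closest of them. Over the start of B3GNT3, a glycosyltransferase gene, chr19:17904921-17906717 scored 195.13, 323.17 and 509.60 in siLSD1 replicate 1, siLSD1 replicate 2 and the pooled list.

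Genes were named at 65 of the 1745 regions, 39 genes in all, from recalled hg19 positions and not from a computed annotation. The remaining regions have no gene named here, since no annotation of hg19 was used. No count over a gene family or pathway can therefore be read from these names, and regions at other genes of adhesion, muscle or interferon response are not accounted for. The strongest region with its own pooled peak had no gene named. It lay in 19q13.32 at chr19:47032117-47034448, was 2332 bp wide, and scored 625.59, 780.64 and 1053.61 in siLSD1 replicate 1, siLSD1 replicate 2 and the pooled list.

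For 58 of the 1745 regions (3.32%), the pooled score was not the region's own. There the pooled siLSD1 peak was wider than the region and ran on into a siCtrl peak that the region itself did not touch. It overlapped a pooled siCtrl peak in 54 cases and a siCtrl library peak in 52. These peaks were 4757.5 bp wide at the median and scored 466.1, while the pooled peaks of the other 1687 regions, which touched no siCtrl peak, scored 207.55. In siLSD1 replicates 1 and 2 the medians were 100.06 and 95.64 for the 58 regions and 109.36 and 121.36 for the 1687. The distinction was drawn after the values were seen.

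All 12 regions of highest pooled score were of this extended kind, and so were 21 of the highest 30. The highest was in CLIP2, the gene of a microtubule-binding protein, with a pooled score of 2551.46 beside library scores of 88.53 and 58.35. In FBXO32, which encodes the muscle ubiquitin ligase atrogin-1, the pooled score was 2135.23 and the library scores were 241.35 and 100.98. At ELANE, the gene of neutrophil elastase, they were 2519.93, 190.57 and 280.56. The pooled score therefore does not rank these 58 regions by their own signal. BST2, CLDN4, PODXL, COL27A1, NFIC, CACNA1A and CSRP3, named above, all had a pooled peak of their own at the region with the scores given.

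In the siLSD1 libraries themselves the regions were mostly weak. The median peak score was 109.16 in replicate 1 and 120.70 in replicate 2, at the 32.3 and 33.1 percentiles of those libraries' peaks. Gained regions outside the high-scoring set had medians at the 18.0 and 16.7 percentiles. Both libraries scored at least 150 in 161 regions (9.23%), and both scored below 150 in 953 (54.6%). Across regions the scores of the replicates had a Spearman correlation of 0.043, a description over 1745 regions that share their libraries and were selected on the pooled score. Regions just inside the score minimum had pooled scores of 150.02, 150.03 and 150.06, and those just outside had 149.95, 149.84 and 149.83.

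**Figure D2:**
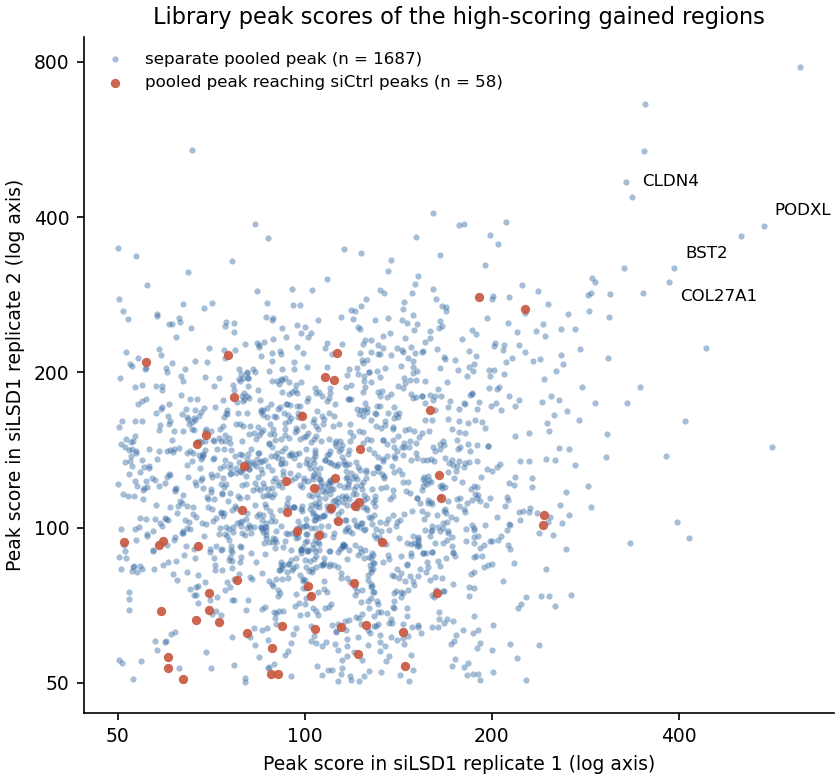
Peak score in siLSD1 replicate 1 (x, log axis) against replicate 2 (y, log axis), 1 point per high-scoring gained region; blue points have a separate pooled peak (n = 1687) and red points a pooled peak that reaches siCtrl peaks (n = 58). Most points lie below 200 on both axes, the labelled genes lie toward the upper right, and the red points, with medians of 100.06 and 95.64, do not stand out by their library scores.

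Pooled siLSD1 peaks clear of every siCtrl peak were rare among the strongest ones. The shares below leave out pooled peaks of the extended kind, which touch siCtrl peaks. Of pooled siLSD1 peaks scoring 150 to 200, 17.2% touched no siCtrl peak in any list and lay in both siLSD1 libraries. That share was 9.85% at 250 to 300, 1.67% at 400 to 500 and 0.0148% at 750 and above, where it was 2 of 13537 peaks. Below the minimum it was 15.5% at 100 to 150 and 0.898% at 50 to 75.

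**Figure D3:**
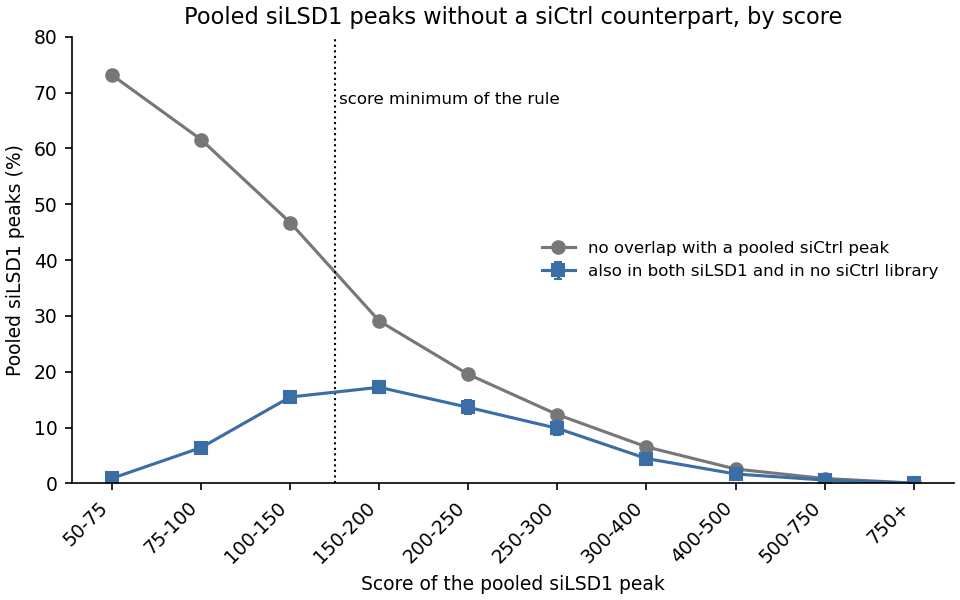
Share of pooled siLSD1 peaks (y, %) by their score (x), for peaks without a pooled siCtrl overlap (grey) and for those also in both siLSD1 libraries and in no siCtrl library (blue, exact 95% intervals). The blue share is highest at 150 to 200, with 17.2%, and falls to 0.0148% at 750 and above.

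High-scoring gained regions were narrower than shared ones. Their median width was 1555 bp, with quartiles of 1301 and 1950 bp and a maximum of 7605 bp. The other gained regions had a median of 1324 bp and regions called in all 4 libraries one of 2810 bp. These widths span merged peaks, and shared regions merge peaks of more libraries than gained ones. Within siLSD1 replicates 1 and 2 alone, peaks covered a median of 1301 and 1404 bp of the high-scoring gained regions. In shared regions they covered 2405 and 2546 bp. A width of at least 2 kb was reached by 400 high-scoring gained regions (22.9%). Width follows the score used to choose the regions and was not tested.

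The regions lay at a distance from shared peaks much as other gained regions did. The median distance to the nearest region called in all 4 libraries was 14948 bp, and 16064 bp for the other gained regions. Within 5 kb of a shared region lay 436 (24.99%, exact Clopper-Pearson 95% interval 22.97 to 27.1%), against 24.0% of the other gained regions. Beyond 50 kb lay 353 (20.2%), and beyond 100 kb lay 157. The nearest siCtrl library peak was a median 9107 bp away.

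**Figure D4:**
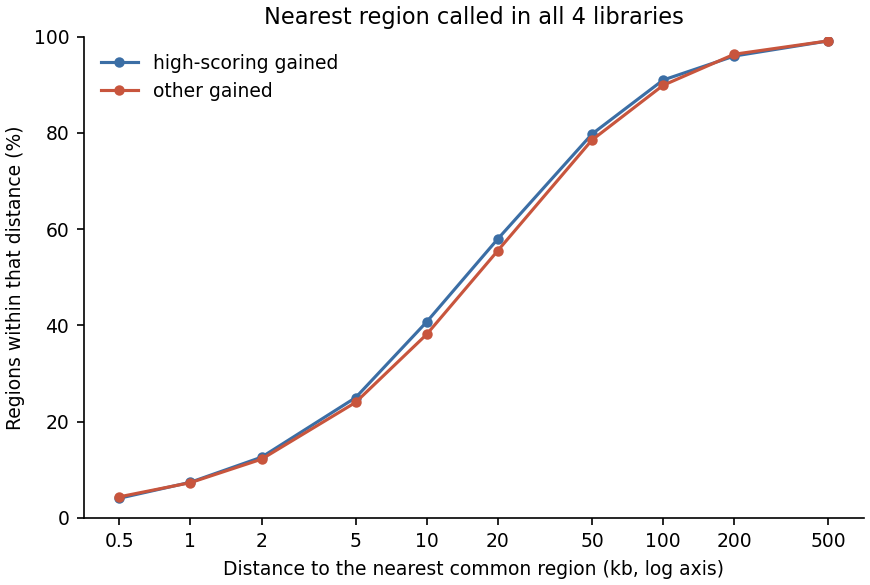
Cumulative share of regions (y, %) within a given distance of the nearest region called in all 4 libraries (x, kb, log axis), for high-scoring gained (blue) and other gained regions (red). The curves run close together, at 24.99% and 24.0% within 5 kb and at 79.8% and 78.5% within 50 kb.

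Most regions stood alone among regions of their kind. A gained region of any kind lay within 50 kb of 31.1% of the high-scoring ones and of 31.1% of the other gained regions. Within 50 kb of another high-scoring gained region lay 277 (15.9%), in 122 groups, and 1468 (84.1%) had no neighbour of their kind at that distance. There were 99 groups of 2, 16 of 3, 5 of 4 and 2 larger ones. Of the 23 groups of at least 3, 6 were on chromosome 19 and 5 on chromosome 3. Chromosome 19 held 6.65% of the high-scoring gained regions and 4.18% of all merged regions, and chromosome 3 held 6.07% and 5.57%. Merged regions were densest on chromosome 19, at 40.7 per Mb, against 16.2 per Mb on chromosome 3. The spread of groups over chromosomes was not tested. The largest held 6 regions at chr19:17809309-17906717 in 19p13.11, from upstream of FCHO1, an endocytosis gene, to B3GNT3, and 4 shared regions lay between them. A group of 5 lay at chr7:75405262-75502808 in 7q11.23. The BST2 region belonged to a group of 4 within 82.7 kb, the NFIC region to a group of 4 within 47.8 kb that held no shared region, and 3 regions at MYO1F, an unconventional myosin gene, to another group of 4. Groups of 3 also lay at CFLAR, an inhibitor of caspase-8 activation, SIK3, a salt-inducible kinase, and MBNL1, a splicing regulator.

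Chromosome 19 held the highest share of such regions and chromosome 13 the lowest. On chromosome 19 they were 116 of 2408 merged regions (4.82%, exact 95% interval 3.997 to 5.75%), and on chromosome 13 they were 16 of 1046 (1.53%, 0.877 to 2.47%), beside 3.03% over all chromosomes. These intervals cover counting error only and treat regions as independent. Band 19p13.3 held 33 and 19p13.11 held 21, or 6.82% and 8.86% of the merged regions there. In 3q28, the band of LPP, 10 of 82 merged regions were of this kind. Light-staining bands, which are rich in genes, held 56.3% of the high-scoring gained regions and 56.4% of all merged regions.

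**Figure D5:**
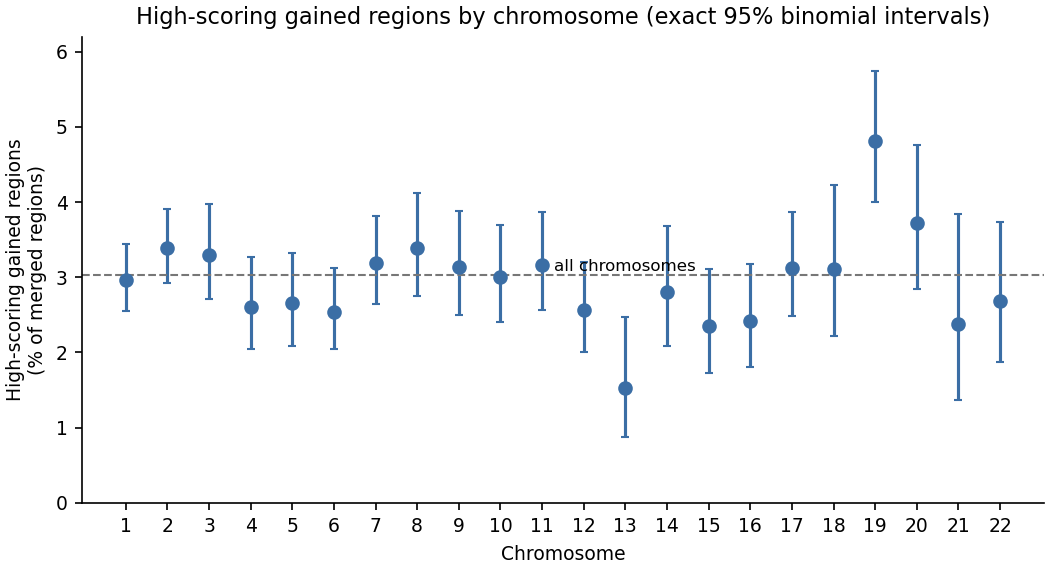
High-scoring gained regions as a share of merged regions (y, %) on each chromosome (x), with exact 95% binomial intervals; the dashed line is the share over all chromosomes, 3.03%. Chromosome 19 lies above the line at 4.82% and chromosome 13 below it at 1.53%.

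Peak coverage around the regions was compared over the 4 libraries. It is not independent of the rule, since a siCtrl peak that reached into a region would have removed that region. A siLSD1 peak that reached into a region removed it only where it joined that region to a siCtrl peak. The comparison therefore describes the surroundings and does not test an effect of LSD1. With gained regions left out, the 25 kb on either side held 6.61% and 6.53% of the covered length of siCtrl replicates 1 and 2 and 7.31% and 7.24% of that of siLSD1 replicates 1 and 2. The siLSD1 mean was 7.28% ± 0.0507 (SD, n = 2), 1.11 times the siCtrl mean of 6.57% ± 0.0538 (SD, n = 2). Both siLSD1 libraries lay above both siCtrl libraries, by more than the spread within either pair. The exact two-sided permutation p was 0.33, the smallest that 2 libraries against 2 allow. Around the other gained regions the ratio was 1.06, and the difference between these ratios was not tested.

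Shared regions near the gained ones were often broader after siLSD1. Nearness is not independent of breadth, since a region reached by a peak of its shared neighbour, siCtrl or siLSD1, would not have been gained. The shares near gained regions are therefore descriptions. Among 484 regions called in all 4 libraries and lying within 5 kb of a high-scoring gained region, 243 (50.2%) were broader in each siLSD1 library than in either siCtrl library and 21 (4.34%) narrower. Within 50 kb it was 41.1% of 3288 and 7.73%, and over all 26098 shared regions 30.8% and 9.6%. Mean breadth within 5 kb was 2500 and 2845 bp in siCtrl replicates 1 and 2 and 3033 and 3207 bp in siLSD1 replicates 1 and 2. Tested region by region with limma, none of the 26098 passed a Benjamini-Hochberg adjusted p of 0.05, a background of 0%, the lowest being 0.117. Before adjustment, at p under 0.05, 433 of the 3288 were broader and 45 narrower, beside 7.79% and 1.64% of all shared regions. After quantile normalization those counts were 335 and 108, with 1501 broader and 1107 narrower over all shared regions. Without siCtrl replicate 1, whose list is the shortest, they were 236 and 56, with 1019 and 696 over all. The median difference within 50 kb was 0.217 kb, beside 0.129 kb over all, and 0.034 kb beside -0.045 kb after quantile normalization. Without siCtrl replicate 1 it was 0.098 kb beside 0.011 kb. Limma recovered 0 of 100 simulated shifts of 1 kb and 0 of 100 of 2 kb in this design.

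The lists differed in length. The siCtrl lists held 33137 and 43713 peaks and the siLSD1 lists 49654 and 48468, and the number of reads behind them is unknown, so a peak missing from a siCtrl list does not show that the mark was absent. With the 33137 top-scoring peaks of each library, 550 regions met the rule and 437 of the 1745 (25.04%) were still among them. Of the 550, 113 (20.5%) overlapped none of the 1745. The pooled lists were not cut and stayed unequal, with 44116 siCtrl and 55656 siLSD1 peaks. Of the 30 highest with their own pooled peak, 27 were kept, including those at BST2, CLDN4, PODXL, COL27A1 and CACNA1A and upstream of NFIC. The region at CSRP3 was kept too. At IGF2BP2 1 of 4 regions was kept, at LAMC1 none of 3, and at SIK3 and MBNL1 none. At LPP and upstream of CD44 only the region of highest pooled score was kept. A part of list length in the other differences was not tested.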

How the data were processed

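Per the labels, H3K4me2 ChIP-seq libraries were made from RD cells, 2 per siRNA, each with an input library; the 4 input libraries were not analysed here. Per the submitters' processing notes, reads were aligned with Bowtie to hg19. MACS appears in the peak names; its settings and the pooling of replicates were not given in the sources used here. For every peak the authors deposited a start, an end and a score. Read depth is unknown. Starts and ends, in base pairs as deposited, were turned into positions counted from 1.

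Regions were built and counted with Python 3.11.15, numpy 2.4.6, pandas 2.3.3 and scipy 1.17.1; peaks outside chromosomes 1 to 22 were left out. Breadth, the kb under peaks, was tested with limma 3.58.1 (trend and robust, statmod 1.5.0, R 4.3.3). Cytobands came from circlize 0.4.16. On simulated lists the rule recovered 100 of 100 regions with 0 false calls. That checks the code only, because the simulated peaks were set to meet or miss the rule. It does not measure false gains from missed peaks.

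Members and lists were chosen with earlier results of these data known. Regions named were the 30 of highest pooled score, those in groups of at least 3, the 5 widest, the 3 on either side of the score minimum, and those at genes of preset families. The preset limit of 6 groups was exceeded: other groups of 3 are named too. Gene names rest on recalled hg19 positions. They were later compared with an approximate lookup through the GRCh38.p14 gene table, with positions shifted between builds. That lookup is not a reliable placement, genes it alone had pointed to were left out, and 1 recalled gene, JUP, was dropped after it, so the names kept are not independent of it. Promoter sequences are from RefSeq, GRCh38.p14. Alternatives were other score minimums, merging rules, equal or upper-half lists, flank sizes, scalings, a replicate block and leaving out each library; restriction to separate pooled peaks was added after seeing the data.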

Additional observations from a re-analysis of the deposited data

How the results depend on the processing

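The count of 1745 regions was 2834, 974 and 285 at score minimums of 100, 200 and 300, 550 with equal numbers of peaks and 91 with the upper 50% of each library list. Leaving out 1 library gave 1788 to 2277. That loosens the rule, since 1 library then stands for both of its group, so the count could hardly fall. In each case 1744 or 1745 of the 1745 regions were overlapped. Median width was 1445, 1687 and 2016 bp at those minimums, 1823.5 bp with equal numbers and 2332 bp with the upper 50%, and 1267 to 1571 bp with 1 library left out. The share within 5 kb of a shared region was 32.3% at a minimum of 300, 19.9% with gaps up to 1000 bp merged, 22.5% with equal numbers, 16.5% with the upper 50%, 19.6% with no siCtrl peak within 1000 bp, and 25.1 to 31.0% with 1 library left out. The share within 50 kb of another such region was 24.4%, 11.2% and 10.2% at the 3 minimums, 13.8% with gaps merged, 8.91% with equal numbers, 4.40% with the upper 50%, and 16.4 to 23.7% with 1 library left out. The share on chromosome 19 was 8.01% and 11.2% at minimums of 200 and 300, 11.3% with equal numbers, 25.3% with the upper 50%, and 5.67 to 6.71% with 1 library left out. Apart from the loosened rule with 1 library left out, the causes of these shifts were not tested.

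The flank ratio stayed above 1 under the 16 alternatives run, from 1.05 with flanks of 100 kb to 1.18 with the upper 50%, and was 1.11 with the replicate block (pairs 1.106 and 1.108). Limma called 0 shared regions in each of 8 alternatives, the replicate block included, with smallest adjusted p from 0.059 to 0.622; at an unadjusted p under 0.05 the block gave 593 broader and 59 narrower regions within 50 kb. The labels do not say that replicate numbers pair the libraries. With the 1687 separate regions alone, the median width was 1551 bp and the flank ratio 1.10.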
